A study of Mus musculus with 38 samples.

Results

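The 64 genes described here, in mouse kidney tumours and tumour cell lines, mostly encode proteins of the splicing machinery. They were chosen from the 21705 rows of the gene table by symbol alone: every name beginning with Snrp, Sf3a, Sf3b, Srsf, Sfrs, Hnrnp, Hnrp, or Lsm followed by a digit, with names marked -ps (pseudogenes) left out. By role they divide into 8 genes of the Sm core, 2 of the U1 snRNP, 10 of the U2 snRNP, 6 of the LSm ring on U6, 6 other LSm genes, 12 SR genes and 20 hnRNP genes. The other LSm genes include some that act outside splicing, among them Lsm1, Lsm10, Lsm11 and Lsm14b. They are counted below with the splicing genes because the rule takes them in. The rule uses names and no measured value, but it was proposed with earlier results of these data known.

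Introns are cut out of pre-mRNA by the spliceosome, which is assembled from small nuclear ribonucleoproteins (snRNPs), each an RNA wrapped in a ring of Sm or LSm proteins with a few proteins of its own. The U1 snRNP recognises the start of an intron and the U2 snRNP its branch point, while the U6 RNA, held by LSm proteins, enters the active site. SR proteins and hnRNP proteins bind the pre-mRNA itself: SR proteins mostly favour the use of nearby exons, hnRNP proteins often oppose it, and members of both families also carry RNA to the cytoplasm and affect its stability. MYC, a transcription factor, is known to raise genes of several of these families.

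RNA-seq was read in 38 libraries of 10 groups, made with a stranded mRNA kit. In MYC mice the Ksp-cadherin promoter, which is active in renal tubule cells, drives rtTA, so that doxycycline (Dox) switches on the Tet-O-MYC transgene. VM mice carry in addition floxed Vhl deleted by the tamoxifen-inducible KspCreERT2, and VIM mice further lack Ink4a/Arf in the germline, that is in every cell of the animal. Tumours of the 3 genotypes were each read in 3 libraries from animals kept on Dox, but the MYC tumours came from 2 mice, 2 of the libraries being titled with mouse 2983. The 5 normal kidneys were wild type and given vehicle, 2 titled B6 and 3 titled KT, a term the labels do not explain; since the tumours were on Dox and the kidneys were not, the genotype and the Dox feed cannot be told apart. The cells were 1 line per genotype, MYC-2983 and those that the labels call VM and VIM, with 4 libraries maintained on Dox and 4 taken off it for each, collected the day after plating. The study's text names the sequenced VM and VIM lines VM-3055 and VIM-3039, among further lines not analysed here, and 1 VM tumour is titled with mouse 3055. No group held Dox-treated cells without the transgene, so MYC and other actions of Dox cannot be told apart, and a difference between lines is one between single lines. The 4 libraries of a cell group are not stated to be separate cultures, and their p-values may then measure technical spread only. The study began Dox in the mice at a set age, and the age of each sampled animal was not given in the sources used here.

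Values are RSEM gene counts after upper quartile scaling by the authors, with that quartile set to 1000, and are called units below. Each library held an estimated 8215703 to 36578653 reads, and 3 reads, the least taken as detection, were worth 1.16 to 5.65 units; these limits cover counting error only. The deleted genes were low in the cell lines: Vhl was at 8.32 to 38.8 units in VM and VIM cells against 433 to 543 in MYC-2983 cells, and Cdkn2a, the Ink4a/Arf gene, was at 24.9 to 40.8 in VIM cells against 3473 to 5701 in VM cells. In tumours Vhl was at 40.2 to 79.9 units in VM and 219 to 312 in VIM tumours, against 468 to 559.7 in MYC tumours and 612 to 772 in kidney, so VIM tumours kept more of it than VM tumours. Cdkn2a was at 30.1 to 95.5 units in VIM tumours, above the kidneys (0 to 3.80), overlapping the MYC tumours (59.3 to 2872) and below the VM tumours (3392 to 4347). The transgene has no row of its own, and the row Myc was lower with Dox in each line, by 1.44, 1.83 and 1.96 on the log2 scale in MYC-2983, VM and VIM cells. In MYC, VM and VIM tumours the same row was higher than in kidney, by 2.22, 3.08 and 2.67 (limma adjusted p 0.00429, 9.41e-05 and 0.000187). The study's immunoblots of cell lines from the 3 genotypes showed MYC protein that depended on Dox.

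The promoters of 6 members stand for the patterns described below: Snrpa1, Snrpg and Srsf2 rose with Dox in every line, Lsm10 and Lsm14b fell in VM and VIM cells, and Snrpa holds 2 copies of CACGTG, the E-box letters that MYC-MAX dimers bind. Each is the 250 bases before a RefSeq gene start on GRCm38.p6, 5′ to 3′ on the gene's strand. Where a gene had several starts, the first with CACGTG in these bases was shown, and otherwise the first listed. The choice of start thus favours that motif. Capitals mark matches on either strand to that E-box, to CCGGAAG (an ETS-type motif), to the CCAAT box and to the TATA box (TATAAA). Snrpa1 lies at chr7:66060086-66060335 on the plus strand, Snrpg at chr6:86371290-86371539 (plus), Srsf2 at chr11:116853095-116853344 (minus), Snrpa at chr7:27196272-27196521 (minus), Lsm10 at chr4:126096403-126096652 (plus) and Lsm14b at chr2:180024737-180024986 (plus).
Snrpa1: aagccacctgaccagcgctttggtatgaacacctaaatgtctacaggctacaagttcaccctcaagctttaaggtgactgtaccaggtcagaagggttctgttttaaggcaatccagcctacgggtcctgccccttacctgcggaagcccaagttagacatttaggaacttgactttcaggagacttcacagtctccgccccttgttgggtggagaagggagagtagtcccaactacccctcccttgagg
Snrpg: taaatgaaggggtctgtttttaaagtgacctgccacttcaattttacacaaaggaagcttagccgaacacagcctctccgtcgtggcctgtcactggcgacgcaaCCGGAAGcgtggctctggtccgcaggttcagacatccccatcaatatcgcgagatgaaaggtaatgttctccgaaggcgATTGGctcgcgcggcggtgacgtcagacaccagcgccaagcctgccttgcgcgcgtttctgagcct
Srsf2: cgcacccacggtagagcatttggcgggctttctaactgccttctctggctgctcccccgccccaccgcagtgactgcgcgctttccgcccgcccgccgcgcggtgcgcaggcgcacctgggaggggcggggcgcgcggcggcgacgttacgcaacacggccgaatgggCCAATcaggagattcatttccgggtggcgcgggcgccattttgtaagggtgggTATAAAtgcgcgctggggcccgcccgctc
Snrpa: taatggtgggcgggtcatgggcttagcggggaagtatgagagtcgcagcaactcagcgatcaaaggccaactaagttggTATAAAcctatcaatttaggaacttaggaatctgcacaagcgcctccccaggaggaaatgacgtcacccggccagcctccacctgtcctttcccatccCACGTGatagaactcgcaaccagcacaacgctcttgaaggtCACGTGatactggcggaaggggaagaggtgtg
Lsm10: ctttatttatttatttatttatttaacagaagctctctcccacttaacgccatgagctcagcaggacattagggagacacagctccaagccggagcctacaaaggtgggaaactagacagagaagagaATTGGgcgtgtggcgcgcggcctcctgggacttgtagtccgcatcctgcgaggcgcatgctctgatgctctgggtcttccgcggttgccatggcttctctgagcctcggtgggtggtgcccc
Lsm14b: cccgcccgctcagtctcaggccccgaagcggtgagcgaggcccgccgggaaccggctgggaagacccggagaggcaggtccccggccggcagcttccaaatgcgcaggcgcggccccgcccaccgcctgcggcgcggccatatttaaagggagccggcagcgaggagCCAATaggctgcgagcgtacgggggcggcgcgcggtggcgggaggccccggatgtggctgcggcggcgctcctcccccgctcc

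No match to these motifs is in the Snrpa1 window, and Snrpg carries CCGGAAG and a reversed CCAAT. RefSeq windows of 300 bases, 250 before and 50 after the start, were matched for 54 of the 64 members (73 windows, since a gene can have several starts). CACGTG was in 9.59% of these windows against 7.15% of all 32851, CCGGAAG in 28.8% against 8.86%, CCAAT in 45.2% against 37.4% and TATAAA in 9.59% against 13.6%. The CACGTG windows belonged to 6 members, Hnrnpa3, Hnrnpd, Hnrnpf, Hnrnph2, Hnrnpm and Snrpa. A match describes letters in the window and not binding, and none of the 4 motifs contains another.

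In all 3 lines most splicing genes were higher in cells kept on Dox than in cells taken off it. By limma on log2(value + 1) with Benjamini-Hochberg adjustment over all genes tested, 55 of the 63 members tested were higher and 1 lower in MYC-2983 cells at an adjusted p below 0.05, where 31.5% of all genes were higher and 44% lower. In VM cells 53 of 62 were higher and 6 lower, beside 26.1% and 47.7% of all genes, and in VIM cells 58 of 63 were higher and 3 lower, beside 31.1% and 44.2%. The members' median change was 0.45, 0.56 and 0.67 on the log2 scale in MYC-2983, VM and VIM cells, against −0.13, −0.26 and −0.15 over all genes. Restricted to genes averaging 50 units or more, the higher share was 39.3%, 32.9% and 38% over all genes, and 54, 52 and 57 of 61 members. A change above 1 on the log2 scale was passed upward by 0 members in MYC-2983 cells (4.49% of all genes), 5 in VM cells (5.92%) and 10 in VIM cells (7.67%), and downward by 1, 0 and 1 (15%, 18.9% and 16.6%). Upward these counts became 1, 18 and 14 after TMM (5.95%, 9.51% and 10.2% of all genes), 3, 11 and 14 after quantile normalization (7.1%, 10.4% and 10.9%) and 2, 11 and 13 by voom on recovered reads (6.47%, 7.54% and 9.58%). Of the 62 members tested in all 3 lines, 51 were higher in every line (22.5% of all genes), also after TMM and quantile rescaling (22.5%), and 0 were lower in all 3 (33.5%). TMM rescaling moved the median of all genes to −0.01, −0.04 and −0.01 and that of the members to 0.58, 0.79 and 0.82; 38.5%, 36% and 37.8% of all genes were then higher and 36.5%, 37% and 36.9% lower, beside 61, 56 and 60 members higher.

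**Figure D1:**
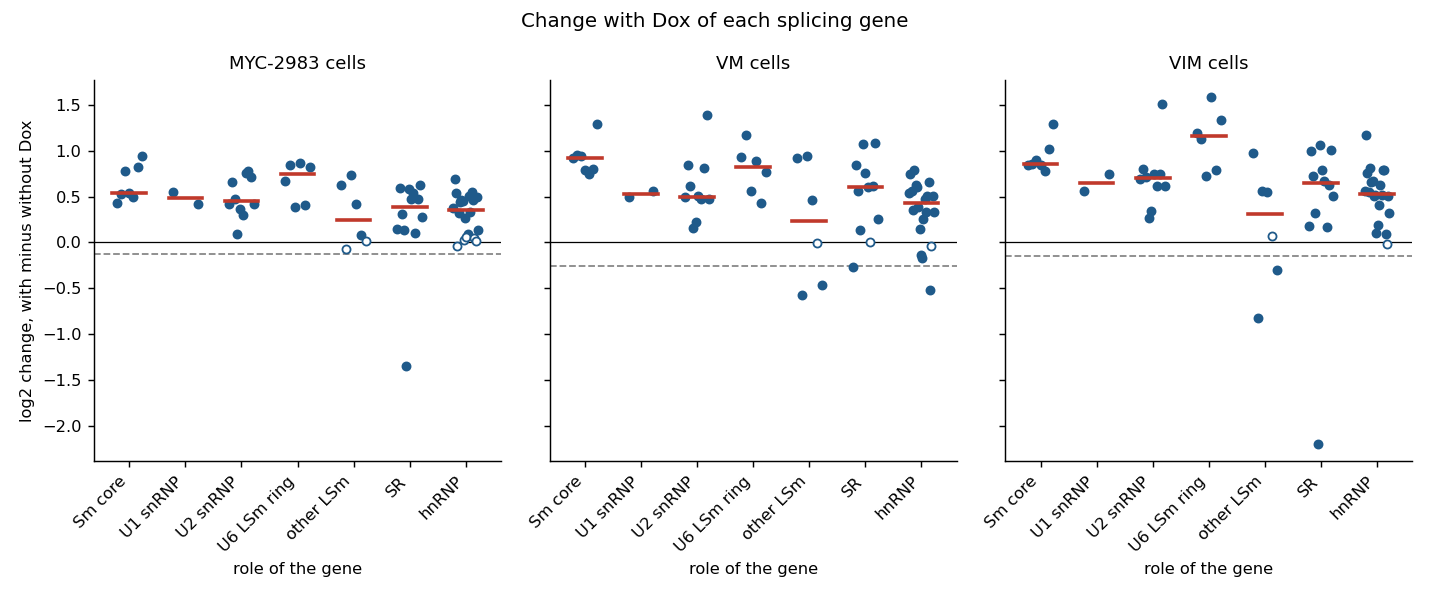
Log2 change with Dox (with minus without) of each member in MYC-2983, VM and VIM cells, by role. Filled points have an adjusted p below 0.05 (limma) and open points do not, the red bar is the median of the role and the dashed grey line the median of all genes tested. Sm core, U1 snRNP, U2 snRNP and LSm ring genes lie wholly above the grey line, and the lowest points are Srsf12, Lsm10, Lsm14b and Hnrnpul1.

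All 7 measured genes of the Sm core, the ring around the U1, U2, U4 and U5 RNAs, were higher with Dox in every line, with medians of 0.54, 0.93 and 0.86 (log2) in MYC-2983, VM and VIM cells. The largest change was that of Snrpg, which encodes SmG (mm9 chr6:86321534-86328896). In MYC-2983 cells Snrpg stood at 304, 314, 347 and 347 units with Dox and 158, 171, 173 and 178 without. In VM cells it was 372, 405, 407 and 428 with Dox and 150.4, 165, 166 and 175 without, and in VIM cells 358, 370.0, 394 and 446 against 145, 156, 159 and 177. The 3 lines had nearly the same level without Dox, no library with Dox overlapped one without, and the log2 changes were 0.94 (SE 0.062), 1.29 (SE 0.076) and 1.29 (SE 0.081). Snrpb, which encodes SmB, rose from 3917 ± 99 units (SD, n = 4) to 5269.9 ± 69.1 units (SD, n = 4) in MYC-2983 cells and from 2660.3 ± 156 units (SD, n = 4) to 5056 ± 302 units (SD, n = 4) in VM cells. The others, Snrpd1, Snrpd2, Snrpd3, Snrpe and Snrpf, changed by 0.50 to 0.82 in MYC-2983 cells, 0.75 to 0.95 in VM cells and 0.78 to 1.02 in VIM cells.

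The 8th Sm gene, Snrpn, whose product SmN takes the place of SmB in brain, was listed at 0 in all 38 libraries. Its transcript also carries the Snurf reading frame, and the row Snurf, which is not a member, was measured. In MYC-2983 cells Snurf was at 33.5, 34.1, 40.8 and 43.9 units with Dox and at 0.54 to 2.89 without, below the worth of 3 reads or close to it. VM and VIM cells held 116 to 223 units of Snurf on either condition and normal kidney 215 to 624. How the counting divided reads between both rows was not tested.

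Of the U2 snRNP genes all 10 were higher with Dox in each line, with medians of 0.45, 0.50 and 0.70. Snrpa1, which encodes the U2 A′ protein (mm9 chr7:73205185-73219468), had the largest change of the group in VM and VIM cells. Its values were 2068, 2109.8, 2118 and 2202 units with Dox and 1254, 1289, 1319.9 and 1329 without in MYC-2983 cells. In VM cells they were 2149.8, 2186, 2187 and 2272 against 765, 812, 893 and 904, and in VIM cells 1958, 1961, 1978 and 1986 against 648, 679, 719 and 733. The 3 lines were close together with Dox and set apart without it, MYC-2983 cells keeping the most. The fold changes were 1.64, 2.61 and 2.84 on the log2(value + 1) scale, with limma adjusted p of 7.97e-14, 1.27e-13 and 1.34e-18. Its partner Snrpb2, encoding U2 B″, changed by 0.42, 0.48 and 0.62.

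The SF3a and SF3b genes, whose products clamp U2 onto the branch point, differed among themselves. Sf3b1, which encodes the largest SF3b subunit and is mutated in several cancers, was nearly level, at 6531 ± 282 units (SD, n = 4) with Dox and 5844 ± 382 units (SD, n = 4) without in VM cells, and changed by 0.09, 0.16 and 0.26 in the 3 lines. Sf3a2 changed by 0.66, 0.85 and 0.80, and Sf3b5, one of the smallest subunits, by 0.78, 0.81 and 0.74. Sf3b4 was 2222, 2279.8, 2430.1 and 2507 units with Dox and 1332, 1361, 1439 and 1446 without in MYC-2983 cells, a log2 change of 0.76, and changed by 0.47 and 0.62 in VM and VIM cells. Sf3a1, Sf3a3, Sf3b2 and Sf3b3 changed by 0.23 to 0.74.

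Both U1 genes among the members were higher with Dox in each line: Snrpa, encoding the U1 A protein, by 0.55, 0.49 and 0.56, and Snrpc, encoding the U1 C protein, by 0.42, 0.56 and 0.75. The gene of the third U1 protein, Snrnp70, falls outside the naming rule. It rose by 0.55, 0.23 and 0.49 with limma adjusted p of 4.57e-11, 0.00241 and 1.22e-10.

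The LSm2 to LSm7 genes of the U6 ring, whose products with LSm1 also form a ring that promotes mRNA decapping, had the highest medians in MYC-2983 and VIM cells, 0.74 and 1.16, and 0.83 in VM cells. Lsm3 was at 1345, 1376, 1411 and 1462 units with Dox and 599.6, 600.1, 625 and 665 without in VM cells, and at 1033, 1049, 1049 and 1168 against 462, 489, 503 and 515 in VIM cells, 2.25-fold and 2.18-fold higher. Lsm5 was 127, 165, 166 and 170.1 against 46.8, 50.6, 54.1 and 54.1 in VIM cells, 3-fold, the largest rise of any member there. In VM cells its libraries overlapped, at 114, 130.2, 132 and 141 with Dox and 45, 53.2, 82.2 and 117 without. Lsm2 rose 2.29-fold in VIM cells, and Lsm7, at a mean of 38.2 units with Dox and 14.3 without, 2.52-fold. Lsm1 itself, of the decapping ring, rose by 0.63, 0.92 and 0.98.

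The other LSm genes were the most divided group. Lsm10 and Lsm11 encode the pair of LSm proteins of the U7 snRNP, which trims the ends of replication-dependent histone mRNAs and takes no part in splicing. Lsm10 (mm9 chr4:125773867-125775828) fell with Dox in VM cells, from 224, 241, 248 and 284 units to 151, 168, 173 and 174, and in VIM cells, from 322, 326, 342 and 351 to 177, 184, 188 and 206. In MYC-2983 cells it was 204, 216, 219.8 and 224 without and 197, 204, 207 and 210.2 with Dox, groups that overlap (log2 -0.08, adjusted p 0.239, limma). Lsm11 went the other way, at 439.7, 444, 455 and 471 with Dox and 213, 232, 247 and 249.6 without in VM cells, and changed by 0.73, 0.94 and 0.56 in MYC-2983, VM and VIM cells. So of 2 genes for 1 particle, the one was higher with Dox in all lines and the other lower in 2 of them. Lsm14b (mm9 chr2:179759692-179770170), of a family that holds mRNAs in a silent state, fell from 1409 ± 75.7 units (SD, n = 4) to 1021 ± 32.5 units (SD, n = 4) in VM cells and from 1411 ± 59.5 units (SD, n = 4) to 1147 ± 21.9 units (SD, n = 4) in VIM cells. The falls of Lsm10 and Lsm14b in VM and VIM cells held under the TMM and quantile scalings.

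Of the 12 SR genes (11 tested in VM cells) 11, 9 and 11 were higher with Dox in MYC-2983, VM and VIM cells, with medians of 0.39, 0.60 and 0.65. Srsf2, which encodes SC35 and is mutated in myeloid cancers (mm9 chr11:116711215-116714408), was at 6599, 6617, 6826 and 7006 units with Dox and 4270.0, 4411, 4667 and 4717 without in MYC-2983 cells. In VM cells it was 7859, 8021, 8229 and 8316 against 3707, 3815, 3926 and 3933, and in VIM cells 7755, 7967, 8057 and 8157 against 3718, 3814, 3835 and 3943. The level with Dox was 2.11-fold and 2.09-fold higher in VM and VIM cells and 1.5-fold in MYC-2983 cells, with no overlap in any line. Srsf2 overlaps Mfsd11 and 1110005A03Rik on the other strand, and whether the counting used strand is not given in the sources used here. Srsf7 passed a change of 1 in VM and VIM cells (1.08 and 1.0). Srsf1, the founding SR gene and a known oncogene in mammary cells, changed by 0.59, 0.84 and 0.99, from 5119 ± 98.9 units (SD, n = 4) to 10199 ± 339 units (SD, n = 4) in VIM cells. Srsf3, Srsf4 and Srsf6 changed by 0.47 to 0.79, Srsf9 and Srsf10 by 0.25 to 0.72, and Srsf5 and Srsf11 by at most 0.32. Srsf12 lay near the limit of detection, at 7.22, 10.5, 11.4 and 13.3 units without Dox and 2.10, 2.80, 4.88 and 4.89 with it in MYC-2983 cells, 4.15, 4.46, 5.10 and 6.64 and 0, 0, 0 and 1.97 in VIM cells, and at or under the worth of 3 reads in all VM libraries.

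The 20 hnRNP genes had the lowest medians after the other LSm genes, 0.35, 0.43 and 0.53, with 15, 16 and 19 higher. Hnrnpa1 (mm9 chr15:103070945-103074445), whose product coats exons and represses their use, was 5195, 6099, 6445 and 6588 units with Dox and 2322, 2472, 2929.7 and 3107 without in VIM cells, 2.25-fold, and 1.62-fold and 1.68-fold in MYC-2983 and VM cells. Hnrnpab rose from 8768 ± 292 units (SD, n = 4) to 15132 ± 163 units (SD, n = 4) in VM cells. Hnrnpa2b1, Hnrnpc, Hnrnpd, Hnrnpf, Hnrnpl, Hnrnpm, Hnrnpr and Hnrnpu changed by 0.33 to 0.79 over the 3 lines, and Hnrnpk by 0.10, 0.25 and 0.41. Hnrnpul2, which encodes a relative of hnRNP U, was level, at 0.02, −0.03 and −0.01, none of which passed the test.

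4 members had calls of opposite sign in different lines, Hnrnph2, Hnrnph3, Hnrnpul1 and Sfrs18 (now Pnisr), a pattern whose share of all genes was not worked out. Under all 3 scalings this held only for Hnrnpul1 (mm9 chr7:26506517-26539749), whose product binds RNA and acts in DNA repair. It was 3205, 3384, 3604 and 4148 units with Dox and 4924, 4937, 5049.6 and 5530.2 without in VM cells, and 1878, 1891, 1915 and 1957 against 1694, 1702, 1832 and 1940.3 in VIM cells. The VM groups did not overlap and the VIM groups did, and the log2 changes were -0.52 (SE 0.065, adjusted p 1.13e-06) and 0.09 (SE 0.04, adjusted p 0.038) by limma. MYC-2983 cells were at 2464 ± 71.1 units (SD, n = 4) and 2386 ± 100.3 units (SD, n = 4), a difference of 0.05 that did not pass. In VM cells Hnrnph2 and Hnrnph3 were lower by 0.14 and 0.17, and both turned to higher after TMM rescaling, to 0.10 and 0.07.

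**Figure D2:**
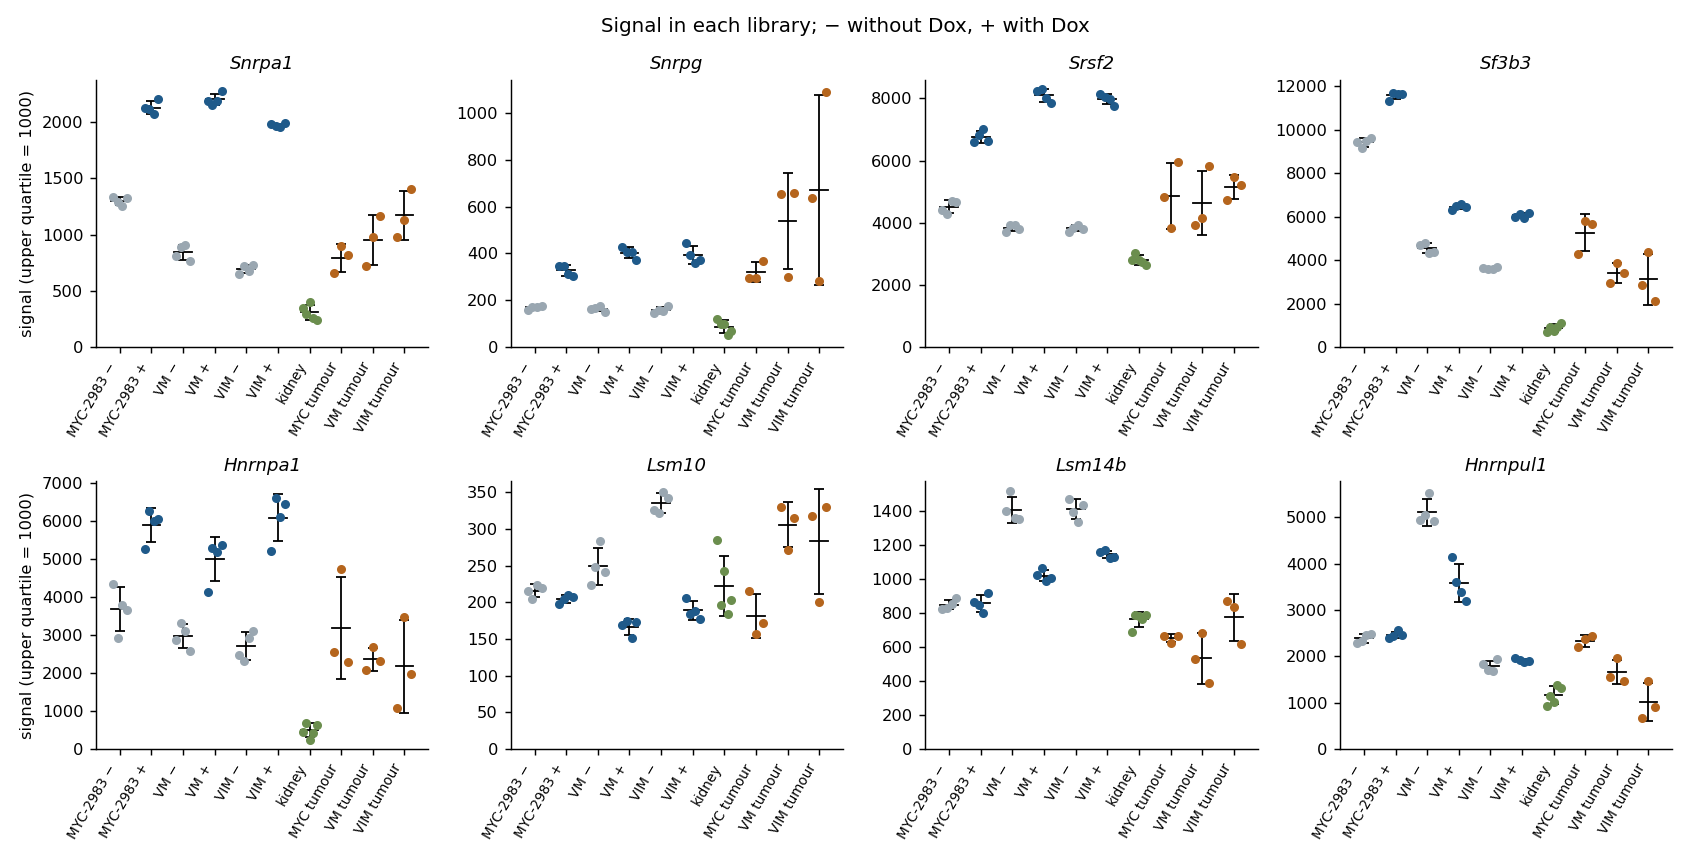
Units (linear axis from 0) of 8 members in every library of the 10 groups, with the mean ± SD of each group in black and points grey without Dox, blue with Dox, green for kidney and orange for tumours. Snrpa1, Snrpg, Srsf2, Sf3b3 and Hnrnpa1 stand lowest in normal kidney and higher with Dox than without in each line, Lsm10 and Lsm14b are lower with Dox in VM and VIM cells, and Hnrnpul1 is highest in VM cells without Dox.

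Whether Dox changed a gene more in one line than in another was tested by the line by Dox interaction (limma), the comparisons sharing cell groups. VM against MYC-2983 cells, the signed log2 change was higher in VM for 27 members and lower for 8 at an adjusted p below 0.05 (17.5% and 28.7% of all genes), and VIM against MYC-2983 cells it was higher for 40 and lower for 3 (23.9% and 23.6%). A lower signed change can be a smaller rise or a larger fall. VIM against VM cells, the counts were 19 and 2 (22.8% and 10.5%); of the genes averaging 50 units or more, 28.7% had the higher signed change in VIM cells. A difference above 1 was reached by 1 member upward (3.26% of all genes) and 0 downward (5.53%) for VM against MYC-2983 cells, by 0 and 0 (4.54% and 4.52%) for VIM against MYC-2983 cells, and by 0 and 1 (3.7% and 2.35%) for VIM against VM cells, both members being Srsf12. These counts moved with the scaling. After TMM rescaling they became 45 and 5 for VM against MYC-2983 cells (27.7% and 18.6% of all genes), 39 and 4 for VIM against MYC-2983 cells (21.1% and 27.1%), and 4 and 12 for VIM against VM cells (10.9% and 20.5%), where the members' median went from 0.12 to −0.03. Under the authors' scaling, TMM and quantile alike, 26 and 5 (15.6% and 16.3% of all genes), 36 and 3 (19.4% and 21.2%), and 4 and 2 members (10.1% and 9.88%) passed in the same direction.

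Snrpa1 had the largest difference among members above 50 units: its change in VM cells exceeded that in MYC-2983 cells by 0.67 (SE 0.062, adjusted p 2.28e-08, limma), and its change in VIM cells exceeded it by 0.79 (SE 0.048, adjusted p 1.5e-11). Srsf2, Srsf7, Snrpb and Hnrnpab changed more in VM than in MYC-2983 cells, by 0.49, 0.46, 0.50 and 0.46. Lsm10 went further down in VM and VIM cells than in MYC-2983 cells, by 0.50 and 0.75, and Lsm14b by 0.48 and 0.31. Sf3b4 changed less in VM than in MYC-2983 cells (-0.29, SE 0.057). Hnrnpa3 did not pass in MYC-2983 cells (-0.03) and rose in VIM cells, a difference of 0.58. Between VIM and VM cells 4 of the 63 members tested had a higher signed change in VIM cells under the 3 scalings. As 10.1% of all genes did so, the members did not stand out, and these 4 were of 2 kinds. Hnrnph1 and Lsm6 rose in both lines and by 0.37 and 0.36 more in VIM cells. As the authors scaled the values, Hnrnpul1 and Sfrs18 fell in VM and rose in VIM cells, differences of 0.61 and 0.45. The fall of Sfrs18 in VM cells did not itself hold under the 3 scalings. Lsm11 rose less in VIM cells (-0.38), and Srsf12 had the lower signed change there (-1.97), from values near the worth of 3 reads.

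**Figure D3:**
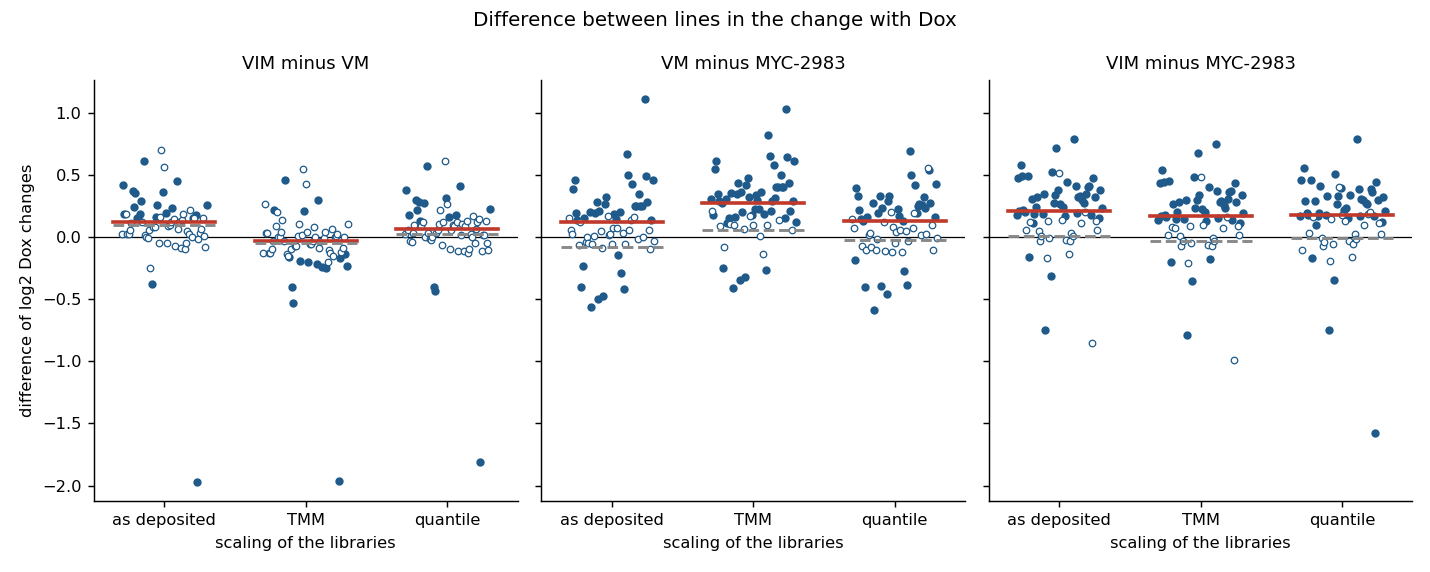
Difference between lines in the log2 change with Dox for each member, for the 3 pairs of lines and under 3 scalings. Filled points have an adjusted p below 0.05 (limma interaction) and open points do not. The red bar is the median of the members and the dashed grey line that of all genes. For VIM against VM cells the red bar is at 0.12 as the authors scaled the values and at −0.03 after TMM, close to the grey line in both.

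With Dox present, differences between VIM and VM cells in splicing transcripts were below 1 on the log2 scale for every member tested, and the members together took a lower share of the summed signal in VIM cells, 1.67 to 1.71% against 1.77 to 1.80% in VM cells. Of 62 members tested 11 were higher and 23 lower in VIM cells at adjusted p alone, against 35.1% and 32.4% of all genes, and none passed a change of 1 in either direction, where 9.69% of all genes were higher and 9.45% lower. The median member differed by −0.03, and the span was from -0.90 to 0.31. The low end was Hnrnpul1, at 1878, 1891, 1915 and 1957 units in VIM and 3205, 3384, 3604 and 4148 in VM cells, followed by Hnrnpa3 (-0.61) and Lsm3 (-0.38). The high end was Lsm4 at 0.31 (SE 0.046), with Hnrnpa1 at 0.29 (SE 0.077).

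In tumours, too, most splicing genes were higher than in normal kidney. By limma over animals, 52, 53 and 52 of 63 members were higher in MYC, VM and VIM tumours (28%, 25.7% and 25.5% of all genes), and 0, 2 and 1 lower (23.4%, 29% and 26.2%). A change above 1 was passed upward by 27, 30 and 27 members, where 19.4%, 17.3% and 18.9% of all genes passed it, and downward by 0, 1 and 1 (17.7%, 22.5% and 20.7%). Upward these became 42, 37 and 36 after quantile normalization (19.5%, 21.2% and 20.2% of all genes) and 53, 49 and 45 by voom (31.4%, 26.1% and 25.2%), and 26, 32 and 27 after TMM (17.4%, 17.9% and 18.8%). The members' medians were 0.96, 0.99 and 0.95, those of all genes 0.12, −0.05 and 0.01. All 3 comparisons use the same 5 kidneys, so their values are given side by side. Of the members 45 were higher in all 3 tumour types (16.6% of all genes tested in each) and 18 by more than 1 in all 3 (11.4%). The tested members higher in none were Hnrnph3, Hnrnpul2, Lsm10, Lsm14b and Srsf4, and the share of all genes higher in none was not worked out. Snrpn, listed at 0 in every library, was not tested. In a whole tissue fewer cells of a type and less RNA per cell cannot be told apart.

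**Figure D4:**
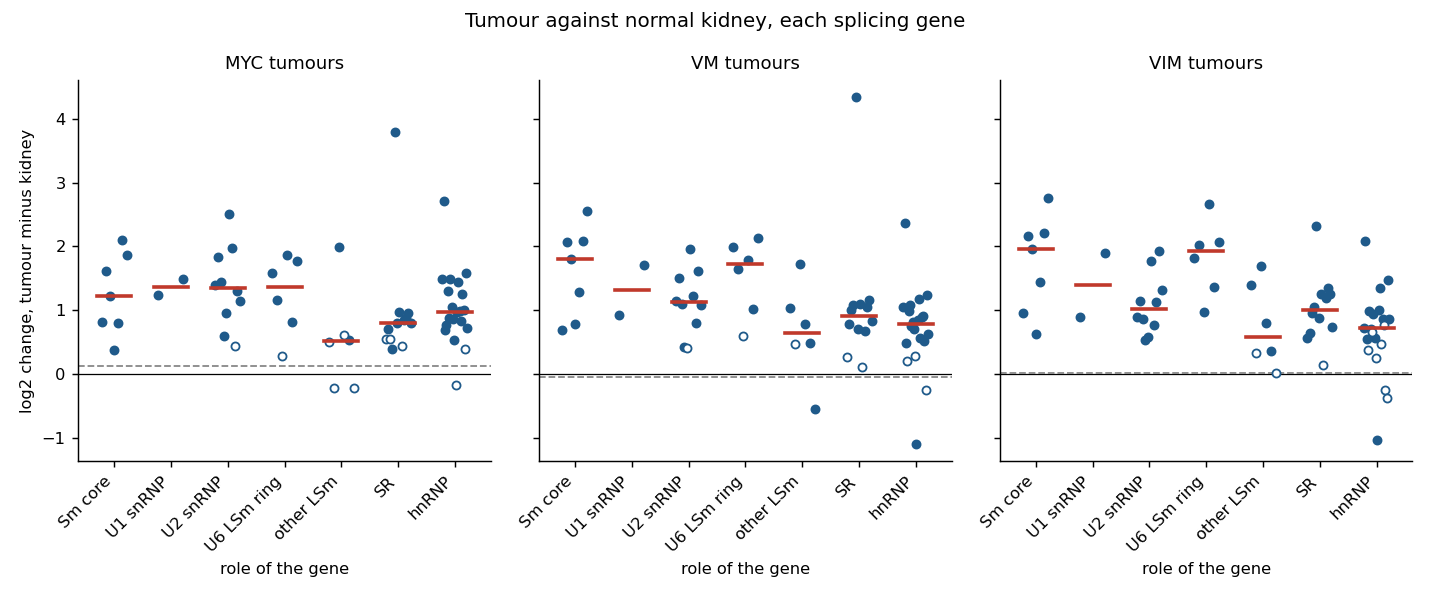
Log2 difference of each member between tumours of 3 genotypes and normal kidney, by role. Filled points have an adjusted p below 0.05 (limma) and open points do not, the red bar is the median of the role and the dashed grey line that of all genes. Sm core and LSm ring medians lie between 1.22 and 1.96, U1 and U2 snRNP medians between 1.01 and 1.39, and hnRNP medians between 0.71 and 0.98.

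The Sm core was 1.22, 1.80 and 1.96 higher by its median in MYC, VM and VIM tumours, and the U6 LSm ring 1.37, 1.72 and 1.92. Snrpg was at 53.7, 69.6, 97.7, 101 and 119 units in the kidneys, 294, 295 and 369 in MYC tumours, 301, 654 and 658 in VM tumours and 282, 637 and 1089 in VIM tumours. Each tumour library was above each kidney, the VIM tumours being the most spread, and the log2 differences were 1.87 (SE 0.34), 2.56 (SE 0.35) and 2.76 (SE 0.43). Snrpd1 was 435 ± 112 units (SD, n = 5) in kidney and 2018 ± 839 units (SD, n = 3) in VIM tumours, and Snrpf 106 ± 23.1 units (SD, n = 5) in kidney and 451 ± 95.1 units (SD, n = 3) in VM tumours. Lsm5 stood at 16.1, 19.5, 20.1, 27.8 and 41.5 in the kidneys and 68.9, 175 and 305 in VIM tumours (6.32-fold), and Lsm7 was 4.36-fold higher in VM tumours.

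Among the U2 genes Sf3b3 (mm9 chr8:113334139-113370703), which encodes a scaffold subunit of SF3b, had the largest difference in MYC and VM tumours. It was 709, 748, 911, 922 and 1123 units in the kidneys, 4276, 5667 and 5819 in MYC tumours, 2948, 3416 and 3855 in VM tumours and 2107, 2862 and 4386 in VIM tumours. No tumour overlapped a kidney, and the differences were 2.51, 1.96 and 1.77. In the cell lines the change with Dox, an unlike contrast, was 0.30, 0.50 and 0.74, and cells without Dox already held 3595 to 9627 units. Sf3b3 overlaps Cog4 on the other strand. Sf3b4 was 475, 484 and 2489 units in MYC tumours and 192, 201, 206, 226 and 239 in kidney. Its high value came from 1 of the 2 libraries of mouse 2983, which also had the highest Cdkn2a of the MYC tumours (2872 units against 59.3 and 108). MYC-2983 cells, titled with the same mouse number, held 2222 to 2507 units of Sf3b4 with Dox. Their Cdkn2a was at 3056 to 3744 units over both conditions. The other library of that mouse was at 484 units of Sf3b4 and 59.3 of Cdkn2a, and both libraries were averaged into 1 sample for the test. Snrpa1 was 1.30, 1.62 and 1.92 higher.

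Hnrnpa1 had the largest difference of any member above 50 units in MYC tumours, at 227, 431, 459, 636 and 686 units in kidney and 2298, 2536 and 4732 in the tumours (6.55-fold, SE 0.4 on the log2 scale, adjusted p 0.000767, limma). It was 5.14-fold and 4.26-fold higher in VM and VIM tumours. Lsm11 was at 66.9, 71.7, 96.4, 96.9 and 130.3 in kidney and 303, 418 and 438 in MYC tumours, while its U7 partner Lsm10 was at 184, 197, 204, 242 and 285 and 157, 172 and 215, groups that overlap. Srsf12 was at 0, 0, 0, 1.46 and 1.63 in kidney, under the worth of 3 reads, and at 14, 16.9 and 35.5 in MYC, 16, 16.5 and 85.2 in VM and 1.88, 10.03 and 11 in VIM tumours.

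Hnrnph3, of the hnRNP H family, was lower in 2 of the tumour types. It was 267, 275, 282, 288 and 427 units in kidney, 222, 281 and 369.6 in MYC tumours, 73.7, 154 and 247 in VM tumours and 114, 149 and 186 in VIM tumours. VM and VIM tumours were all below the kidneys and MYC tumours were not, with log2 differences of -1.10 (adjusted p 0.0243, limma), -1.04 (adjusted p 0.00526) and -0.17 (adjusted p 0.589). The difference between tumour types was not tested. Without VM tumour 3 or kidney 5 the fall in VM tumours no longer passed with a change above 1 (0 members lower, not 1), nor did that in VIM tumours without VIM tumour 3 or kidney 5 (0, not 1). Hnrnph3 overlaps Rufy2. Its close relative Hnrnph1 was 0.85, 0.70 and 0.56 higher in the 3 tumour types. By voom neither fall passed. Lsm14b was -0.55 in VM tumours (adjusted p 0.0256, limma), a call lost by voom (−0.11, adjusted p 0.649), with the KT kidneys alone (adjusted p 0.0664), with the B6 kidneys alone (adjusted p 0.198), without VM tumour 3 (−0.34, adjusted p 0.09) and without kidney 2 or 3 (adjusted p 0.0543 and 0.0529).

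The cells of the tissues differed widely. Proximal tubule markers (Slc34a1, Lrp2, Slc5a2, Slc22a6 and Cubn) summed to 173885 to 212657 units in the kidneys and 1521 to 10199 in the tumours, with 5 of 5 lower in each type. All 6 proliferation markers were higher in every tumour type, their sum going from 155 to 280 units in kidney to 5571 to 19325 in tumours. Endothelial markers summed to 3253 to 5579 units in kidney and 192 to 1949 in tumours, with 5, 4 and 5 of 5 lower in MYC, VM and VIM tumours, and erythroid markers to 734 to 2644 and 81.0 to 1644, with 2, 1 and 1 of 2 lower. Leukocyte markers summed to 827 to 1938 units in kidney and 861 to 3938 in tumours, with 2, 2 and 2 of 6 higher and 0, 2 and 2 lower. Fibroblast markers had 1, 0 and 0 of 6 higher and 0, 3 and 1 lower in MYC, VM and VIM tumours. Of the 3 kidney epithelium markers named below, 1 was higher and 2 lower in each tumour type. Proliferation markers were also higher with Dox in each line, 6 of 6, by a median of 0.69, 1.04 and 1.21 in MYC-2983, VM and VIM cells. Kidney epithelium markers (Cdh16, Pax8 and Pax2) were lower with Dox for 3, 2 and 2 of 3, their sum going from 16303 to 17266 units without to 10986 to 12505 with Dox in MYC-2983 cells, from 12809 to 13219 to 5514 to 5640.3 in VM cells and from 9863 to 10589 to 5725 to 5876 in VIM cells. The part of these shifts in the members' values was not tested.

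Over all members the 64 rows took 1.68% ± 0.0150 (SD, n = 4) of the summed signal with Dox and 1.17% ± 0.0203 without in MYC-2983 cells. VM cells gave 1.78% ± 0.0128 and 1.18% ± 0.0196, and VIM cells 1.69% ± 0.0166 and 1.0% ± 0.00888. Tumours were at 1.17% ± 0.158 (MYC), 1.02% ± 0.122 (VM) and 0.974% ± 0.135 (VIM, n = 3 libraries each), and kidney at 0.425% ± 0.0409 (n = 5). No cell group with Dox overlapped its group without, and no tumour library a kidney. The 20 hnRNP genes alone took 0.974% ± 0.00982 with Dox and 0.668% ± 0.0118 without in VM cells. A share of the summed signal does not depend on the factor by which a library was scaled, and it weighs long transcripts more. Normal kidney had the lowest mean of the 10 groups for 52 members, and MYC-2983 cells with Dox the highest for 24. The shares of all genes with the same order were not worked out, so these counts describe the members only.

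**Figure D5:**
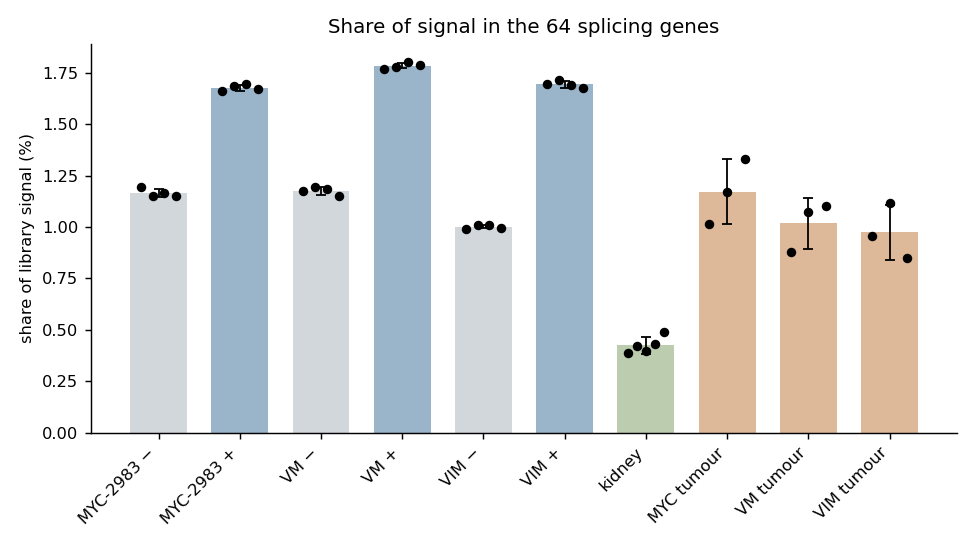
Share of the summed signal of a library taken by the 64 members, in percent, for the 10 groups. Bars are means, error bars SD and points single libraries. Cells with Dox reach 1.66 to 1.80%, cells without Dox 0.992 to 1.20%, tumours 0.850 to 1.33% and normal kidney 0.387 to 0.490%.

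The machinery around these proteins was followed in 6 lists of related genes. Of 19 genes that assemble snRNPs, among them the Gemin genes of the SMN complex and the methylosome gene Wdr77, 18, 17 and 18 were higher with Dox in MYC-2983, VM and VIM cells, with medians of 0.63, 0.75 and 0.92. Gemin5, whose product recognises the snRNA, led in each line at 1.08, 1.67 and 1.81, and Gemin7 was the exception, at −0.27, −0.34 and −0.56. Of 26 tri-snRNP and U2 recruitment genes 22, 21 and 22 were higher and 0, 3 and 1 lower, Nhp2l1 rising by 0.82, 1.52 and 1.43. Of 24 genes of the catalytic core and the Prp19 complex 21, 16 and 21 were higher and 1, 1 and 1 lower. SR kinases and SR-related genes were higher for 13, 12 and 14 of 20 or 21 tested and lower for 3, 3 and 1. Srpk1, which phosphorylates SR proteins, was up by 0.64, 0.80 and 0.80, and Srpk2 was down by 0.58 and 0.40 in VM and VIM cells. Other splicing regulators were split: 21, 21 and 25 of 34 or 35 tested were higher and 8, 8 and 7 lower, Mbnl3 rising by 2.38, 1.51 and 1.01 and its relative Mbnl2 falling by 0.96, 0.83 and 0.62. The minor spliceosome, which removes a rare class of introns, had 2, 3 and 4 of 6 genes higher and 1, 2 and 1 lower, with medians of 0.09, 0.03 and 0.20. Of all genes tested 31.5%, 26.1% and 31.1% were higher and 44%, 47.7% and 44.2% lower at the same adjusted p. A list of 6 genes is too short to set against these shares.

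In tumours snRNP assembly genes were higher for 15, 16 and 16 of 19 and lower for 1, 0 and 0 in MYC, VM and VIM tumours, with medians of 1.11, 1.23 and 1.27. Of the 26 tri-snRNP and U2 recruitment genes 20, 19 and 18 were higher and 0, 0 and 0 lower. Of the 24 catalytic genes 16, 14 and 12 were higher and 0, 1 and 0 lower. Of the 21 SR kinases and SR-related genes 14, 14 and 14 were higher and 0, 0 and 1 lower. Of the 6 minor spliceosome genes 1 was higher in each type and 3, 0 and 1 lower. Of the 36 other regulators 24, 21 and 17 were higher and 4, 8 and 4 lower. Beside these counts, 28%, 25.7% and 25.5% of all genes tested were higher and 23.4%, 29% and 26.2% lower. The 6 minor spliceosome genes are too few to set against these shares.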

How the data were processed

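Mouse kidney tumours, tumour cell lines and normal kidneys were read by paired-end RNA-seq in 38 libraries. The authors aligned reads to mm9 with MapSplice, filtered them with UBU, sorted them with SAMtools, checked them with Picard 1.64, estimated gene counts with RSEM on UCSC knownGene models and divided by the upper quartile, times 1000; these deposited signal values are not counts, and 94.1% to 95.9% of low values were whole multiples of 1 read (tolerance 0.02 reads), so no count test was the main one. Samples were grouped by the labels. Values were tested as log2(value + 1) with limma 3.58.1 (R 4.3.3, lmFit and eBayes with trend, two-sided) on the whole table, with Benjamini-Hochberg adjustment, among genes above 0 in at least 4 libraries (cells) or 2 samples (tissue), with libraries of 1 mouse averaged. A gene passed with an adjusted p below 0.05 and a log2 change above 1, and the count at adjusted p alone, which is the one used for interactions, stands beside it. Fold changes are on the log2(value + 1) scale and understate those of low genes. Genes were named by size of change (the 5 largest rises and falls with a mean of at least 50 units), from fixed lists of splicing genes, or for opposite directions between lines. The members and lists were chosen with earlier results of these data known. Replicate numbers did not pair the samples (correlations of −0.047 to 0.068). Promoters came from RefSeq on GRCm38.p6, and positions on mm9 from the annotation of that build. Scripts were tested on simulated data. Other pseudocounts, filters, scalings, fits and leaving out each library were tried. Python 3.11.15 with pandas 2.3.3 and matplotlib 3.10.9 made the summaries and figures.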

Additional observations from a re-analysis of the deposited data

Results flagged for a closer look

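Of 118 groups of 4 or 5 libraries tested with Dixon's criterion, 11 had 1 library far from the others, where chance gives about 1 in 20 groups (5.9). In MYC-2983 cells with Dox, Snrpb was highest at 5373 units (median of the others 5235), Lsm3 lowest at 1239 (1322) and Sf3b3 lowest at 11313 (11641). Lsm3 was highest at 1167.5 units in 1 library of VIM cells with Dox (1049). Hnrnpa1 was lowest at 4137 units in 1 library of VM cells with Dox (5271). Lsm14b was lowest at 689 units in 1 normal kidney (786). Hnrnph3 was far out in 3 groups, at 387 units in VM cells without Dox (354), 299 in VIM cells with Dox (337) and 427 in normal kidney (279). Srsf12 was at 0.882 units in 1 library of VM cells without Dox and at 1.97 in 1 of VIM cells with Dox, where the others were at 0, both within the worth of 3 reads.

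The change with Dox differed between lines by the interaction test of limma for these members, also under TMM and quantile scaling. VIM against VM cells, Hnrnpul1 differed by 0.61 (adjusted p 7.55e-06, 0.46 to 0.61 over the scalings), Sfrs18 by 0.45 (adjusted p 0.00413, 0.30 to 0.45) and Lsm11 by −0.38 (adjusted p 0.00722, −0.53 to −0.38). In that comparison only 4 of 63 members were higher and 2 lower under the 3 scalings, where 10.1% and 9.88% of all genes were. VM against MYC-2983 cells, Snrpa1 differed by 0.67 (adjusted p 2.28e-08, 0.67 to 0.83), Hnrnpul1 by −0.56 (adjusted p 9.03e-06, −0.59 to −0.41) and Lsm10 by −0.50 (adjusted p 0.000402, −0.50 to −0.35). VIM against MYC-2983 cells, Snrpa1 differed by 0.79 (adjusted p 1.5e-11, 0.75 to 0.79), Lsm10 by −0.75 (adjusted p 1.54e-07, −0.79 to −0.75) and Hnrnpa3 by 0.58 (adjusted p 1.49e-08, 0.54 to 0.58).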

How the results depend on the processing

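Counts of members that passed are given here where an alternative moved them by more than 1.5 times. With Dox in MYC-2983 cells the number higher by more than 1 was 0, and it was 1 after TMM, 3 after quantile normalization, 2 by voom on recovered reads and 55 at adjusted p alone; the 1 lower member became 0 with a pseudocount of 10, a mean of at least 10 units or quantile normalization (0 also at adjusted p alone with that mean). In VM cells 5 higher became 18 (TMM), 11 (quantile), 11 (voom) and 53 (adjusted p alone), 0 lower became 6 at adjusted p alone, and those 6 became 3 after TMM. In VIM cells 10 higher became 58 and 1 lower became 3 at adjusted p alone, the latter 0 with a pseudocount of 10 or a mean of at least 10 units. For VIM against VM cells with Dox, adjusted p alone gave 11 higher and 23 lower in place of 0 and 0.

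For the interactions, VIM against VM cells, 19 higher became 4 after TMM and 0 with a difference above 1, and 2 lower became 12 after TMM, 1 with a mean of at least 10 units and 1 with a difference above 1. VM against MYC-2983 cells, 27 higher became 45 after TMM and 1 with a difference above 1, and 8 lower became 5 after TMM and 0 with that difference. VIM against MYC-2983 cells, 40 higher became 0 and 3 lower 0 with a difference above 1, and 3 lower became 6 by voom. TMM shifts all genes together; the cause of the other moves was not tested.

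In MYC tumours 27 higher became 42 (quantile), 53 (voom) and 52 (adjusted p alone), and 0 lower at adjusted p alone became 1 with no filter, TMM, quantile normalization or no moderation of the variance. In VM tumours 30 higher became 49 (voom) and 53 (adjusted p alone); 1 lower became 0 with no filter, no moderation, voom, or only the KT or B6 kidneys, and 2 at adjusted p alone, where no filter and no moderation gave 1 and voom, KT and B6 kidneys 0. In VIM tumours 27 higher became 45 (voom) and 52 (adjusted p alone, 31 with B6 kidneys only), and 1 lower became 0 with a pseudocount of 10, voom or B6 kidneys (0 also at adjusted p alone with voom or B6 kidneys). By voom the median of all genes was 0.55, 0.35 and 0.32 in MYC, VM and VIM tumours. Giving each group its own weight, chosen after seeing the data because tumour libraries vary more than kidneys, left 26, 30 and 27 higher.

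Leaving out 1 library at a time gave 27 to 34, 26 to 32 and 27 to 31 members higher in MYC, VM and VIM tumours. The 1 lower member in VM tumours became 0 to 1 (0 without VM tumour 3 or kidney 5) and that in VIM tumours 0 to 1 (0 without VIM tumour 3 or kidney 5). At adjusted p alone 0 to 3 were lower in VM tumours (0 without VM tumour 3, 1 without kidney 2 or 3) and 1 to 3 in VIM tumours (3 without VIM tumour 2). MYC tumours without the mouse other than 2983 leave 1 animal, assumed to vary like the others. In VIM against VM cells 14 to 25 had the higher signed change.

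Single members reversed: in VM cells Hnrnph2 to 0.10 (TMM) and Hnrnph3 to 0.0670 (TMM) and 0.0331 (quantile); VIM against VM cells, Hnrnpk to −2.99e-05 (TMM); VM against MYC-2983 cells, Sf3b2 to 0.0138 (TMM); VIM against MYC-2983 cells, Hnrnpa2b1 to −0.10 (quantile). None of these passed the test under that setting.

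Samples with the same number did not deviate together, and the fit with a replicate block moved no count of members by over 1.5 times (14 in place of 19 with the higher signed change in VIM than in VM cells). Depth limits statements on Srsf12, near the worth of 3 reads. Snrpn was listed at 0 in all 38 libraries, and how the counting divided reads between it and Snurf was not tested.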

Other observations

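3 splicing regulators outside these families were picked after their values were seen. Mbnl3 averaged 5.36 units in VM tumours against 69.6 in normal kidney (log2 −4.18, SE 0.75, adjusted p 0.00101, limma). It did not pass in MYC tumours (119 units, log2 0.49, adjusted p 0.486) or VIM tumours (110 units, log2 0.59, adjusted p 0.225), and the difference between tumour types was not tested. Esrp1, which favours epithelial exons, averaged 222 units in kidney and 3.63 in VM tumours (log2 −6.16, SE 0.74, adjusted p 8.34e-05, limma), 61.1 in MYC tumours (adjusted p 0.0429) and 187 in VIM tumours (adjusted p 0.31). In VM cells Esrp1 was at 256 units with Dox and 257 without (adjusted p 0.924). Srpk2, which phosphorylates SR proteins, was lower with Dox in VM and VIM cells and higher than in kidney in every tumour type, at 1615, 1015 and 874 units in MYC, VM and VIM tumours against 607 (limma adjusted p 0.00175, 0.0064 and 0.0303).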
